A study of Homo sapiens with 4 samples.

Results

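The comparison of LPS with Control asks which genes of airway epithelial cells were higher or lower after 2 hr of lipopolysaccharide (LPS), the outer-membrane glycolipid of Gram-negative bacteria. Its members are the 13277 of 24424 gene symbols with at least 16 normalized counts in the Control or the LPS library. A gene was called higher or lower when the log2 ratio LPS/Control, with 1 normalized count added to both libraries, was at least 2-fold. That gave 460 higher genes, or 3.46% of those that passed, and 187 lower genes, or 1.41%. These shares are the background for the counts in gene groups given below. The higher genes included 10 chemokines and 11 cytokines, 4 of 5 NF-kB subunits and 5 of 6 of their inhibitors and cofactors, 12 genes of plasminogen activation and coagulation, 8 growth factors, and transcription factors of the AP-1, KLF, ETS and developmental families. The lower genes, mostly weakly expressed, included 2 of 9 Sprouty and related genes, 11 of 493 zinc finger symbols (2.23%) and 13 of 62 read-through symbols. The classes of ribosomal protein, proteasome subunit and oxidative phosphorylation symbols had 0 calls. They held 82 cytosolic and 77 mitochondrial ribosomal protein, 37 proteasome and 71 oxidative phosphorylation genes, in which the background shares amount to few calls. BEAS-2B is an established human bronchial epithelial cell line, labelled as wild type, and all the RNA came from this line, so it represents epithelial cells in culture without the other cells of the lung. Control cells received no treatment, and LPS cells received LPS for 2 hr without peptide. A WT PDZ+LPS library and a mut PDZ+LPS library, from cells given wild-type or mutant PDZ peptide for 24 hr before the same 2 hr of LPS, completed the 4 libraries and are given beside the comparison as values. Each condition had 1 library, so no difference has a replicate check, no p-value is given, and the intervals cover counting error between libraries only.

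LPS is sensed at the cell surface by Toll-like receptor TLR4 with the helper proteins MD-2 and CD14. The receptor passes the signal through adaptor proteins and kinases to NF-kB, a family of transcription factors held in the cytoplasm by I-kappa-B proteins until these are degraded, and to MAP kinases, which act on AP-1 factors. Many of the genes that NF-kB switches on encode its own inhibitors or enzymes that destroy inflammatory mRNAs, so the early response carries its own brakes. In airway epithelium this response is known for chemokines that draw in neutrophils, for cytokines that act on neighbouring cells, and for proteins of host defence.

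The libraries held between 19682929 counts, for mut PDZ+LPS, and 25155647, for LPS, with 24823347 in Control. All 15 epithelial markers had at least 16 normalized counts in every library, and their summed level was 89182 normalized counts in Control and 90484 in LPS. Of 13 leukocyte markers, 2 reached 16 normalized counts (CD14 and CD68) in each library, and PTPRC, the pan-leukocyte phosphatase CD45, had 0 counts in all 4. The summed level of the list was 755 normalized counts in Control and 740.3 in LPS. Of 6 endothelial markers 1 reached that level, and of 9 ciliated and secretory markers 0 in Control and 2 in LPS, where the mucin MUC5AC was called higher at 22 counts. Mesenchymal markers reached it in 7 of 10, none of them called, with summed levels of 50001 and 62951. The mut PDZ+LPS library stood apart by transcript length. Over the 1191 genes with the shortest transcripts its median log2 ratio to Control was 0.34, and over the 1191 with the longest it was -0.41. The same medians were -0.06 and 0.07 for LPS/Control, so the values of mut PDZ+LPS are to be read with that trend in view. Its part in them was not tested.

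The response to LPS was lopsided. Of the higher genes, 173 were at least 4-fold, 47 at least 16-fold and 16 at least 64-fold above Control, whereas 19 lower genes were at least 4-fold and 7 at least 16-fold below it. The whole counting interval lay beyond 2-fold for 320 higher and 28 lower genes. Higher genes made up 71.1% of the calls, and 58.6% with scaling to total counts, which gave 388 higher and 274 lower genes. The higher genes also reached high levels, with a median of 514 normalized counts in LPS, while the lower genes were mostly weakly expressed, with a median of 33.1 in Control. Among the higher genes, 131 passed the level rule through LPS alone, 15 of them with 0 counts in Control, and 115 of the lower genes passed through Control alone. The median log2 ratio over all 13019 genes with at least 16 normalized counts in Control was -0.0073, and 48.5% of them were above 0.

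**Figure D1:**
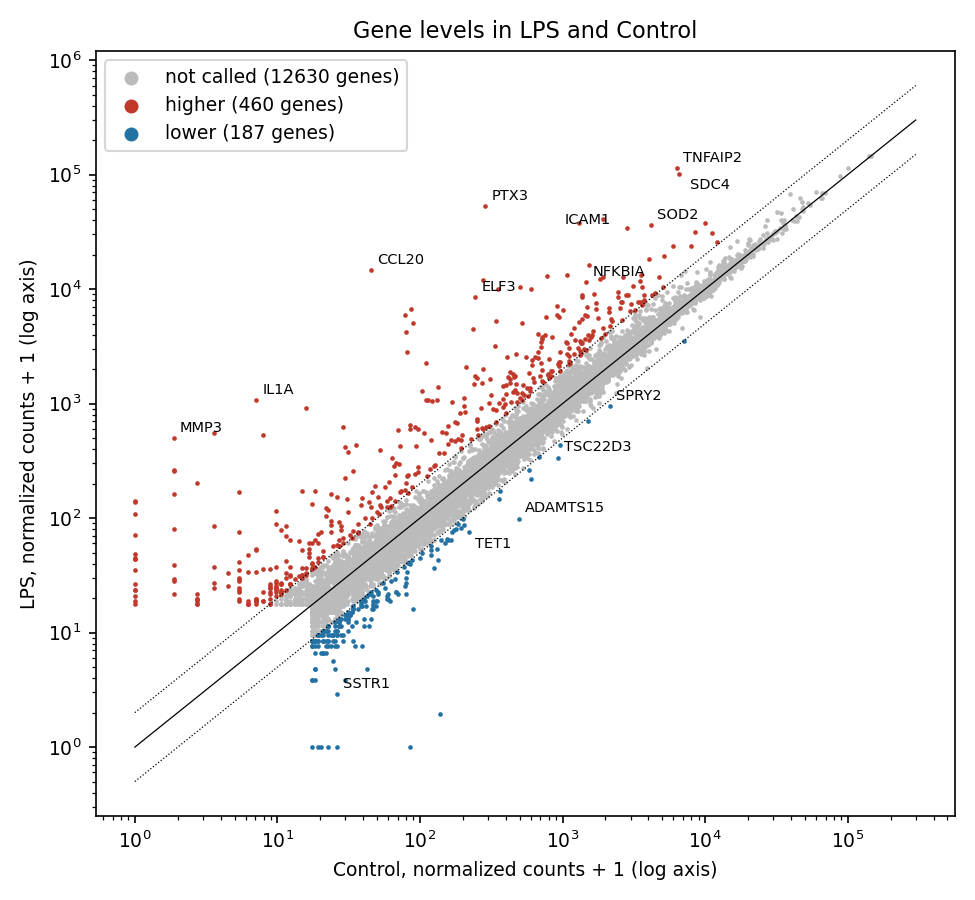
Normalized counts plus 1 in Control (x axis, log scale) and LPS (y axis, log scale) for the 13277 genes that passed the level rule, with the line of equality solid and 2-fold differences dotted. The 460 higher genes reach up to TNFAIP2 and SDC4, the highest of them in LPS, and the 187 lower genes crowd at the low end.

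The higher genes took up 1.47% of all counts in Control and 6.28% in LPS. Their share was 5.68% for WT PDZ+LPS and 6.23% for mut PDZ+LPS. The 10 higher genes with the most LPS counts alone went from 0.246% to 2.18%. The lower genes held 0.113% of counts in Control and 0.0443% in LPS. When the genes with at least 16 normalized counts in Control were ordered by that level, calls became rarer with level, in particular the lower ones. This set leaves out 131 higher genes but keeps the lower ones, and Control is also part of the ratio. The higher and lower shares at the low end are therefore not comparable. Among the 1301 genes lowest in Control, from 16.5 to 48.7 normalized counts, 4.61% of genes were higher and 9.76% lower. Among the 1302 highest, from 3593 normalized counts upward, 1.54% were higher and 0.0768% lower. Just inside the threshold stood SLC11A2, an iron transporter, at a log2 ratio of 1.003, and just outside it CCND1, cyclin D1, at 0.998. On the lower side SAPCD1-AS1, an antisense symbol, was just inside at -1.004 and LRRC46 just outside at -0.995.

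The 30 genes furthest above Control, ranked by the end of the counting interval nearest to 0, held secreted signals of several kinds together with intracellular regulators. CCL20, a chemokine for immature dendritic cells and memory lymphocytes, led the ranking. It had 44.4 normalized counts in Control and 14724 in LPS, next to 11428 in WT PDZ+LPS and 18981 for mut PDZ+LPS, a log2 ratio of 8.34 (95% counting interval 7.98 to 8.80). PTX3, the long pentraxin, a soluble pattern-recognition protein, followed with 53023 normalized counts in LPS against 285 in Control, and 50218 and 64747 where WT PDZ or mut PDZ came before LPS, a log2 ratio of 7.53 (95% counting interval 7.38 to 7.70). For both genes the LPS level was of the order of the levels in the libraries with peptide, and Control stood alone.

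Several of the 30 were close to silent in Control. MMP3, stromelysin, a metalloproteinase that cuts matrix proteins, had 1 count in Control and 533 in LPS, next to 255 in WT PDZ+LPS and 354 for mut PDZ+LPS, and its log2 ratio was 8.07 (95% counting interval 6.69 to 14.48). IL1B, interleukin-1 beta, had 591 counts in LPS against 3 in Control, and 337 and 548 where WT PDZ or mut PDZ came before LPS, with a log2 ratio of 7.27 (95% counting interval 6.18 to 10.02). CSF2, the granulocyte-macrophage growth factor GM-CSF, had 1 count in Control and 274 in LPS, next to 263 in WT PDZ+LPS and 308 for mut PDZ+LPS. The low counts in Control leave wide intervals at the upper end. C15orf48, which encodes a small mitochondrial protein of the respiratory chain, had 278 counts in LPS against 1 in Control, and 188 and 221 where WT PDZ or mut PDZ came before LPS. VCAM1, a ligand for leukocyte integrins, had 1 count in Control and 172 in LPS, next to 106 in WT PDZ+LPS and 147 for mut PDZ+LPS. SERPINB2, an inhibitor of plasminogen activators, had 216 counts in LPS against 2 in Control, and 291 and 265 where WT PDZ or mut PDZ came before LPS. With 0 counts in Control a fold can only be bounded. LTB, lymphotoxin beta, was at least 53.3-fold higher with 148 counts in LPS, where the bound takes Control as 3 counts. On the same terms BCL2A1, a survival protein of the BCL2 family, was at least 26.7-fold higher with 74 counts. H3F3A, a histone H3.3 gene with near-identical copies among which reads can be split, had 0 counts in Control and 114 in LPS, next to 297 in WT PDZ+LPS and 272 for mut PDZ+LPS and is uncertain.

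Others of the 30 had more counts in Control. TNFAIP2, a TNF-inducible protein of the exocyst family, had 114641 normalized counts in LPS against 6329 in Control, and 87567 and 115729 where WT PDZ or mut PDZ came before LPS, the highest LPS level of any higher gene. ELF3, an epithelial transcription factor of the ETS family, had 244 normalized counts in Control and 8492 in LPS, next to 6061 in WT PDZ+LPS and 8297 for mut PDZ+LPS, a log2 ratio of 5.12 (95% counting interval 4.95 to 5.30). TNFAIP6, a hyaluronan-binding protein, had 5925 normalized counts in LPS against 77.5 in Control, and 5889 and 6534 where WT PDZ or mut PDZ came before LPS. These genes stood 18.1-fold, 34.7-fold and 75.5-fold above Control, in that order. PI3, the elastase inhibitor elafin, was 34.5-fold higher. KRT6B, a keratin of activated epithelium with close paralogs, G0S2 and BDKRB1 had under 16 normalized counts in Control and passed through LPS alone. KRT6B was 67.3-fold higher from 6.96 to 535 normalized counts. G0S2, an inhibitor of triglyceride breakdown, was 58.3-fold higher, with normalized counts of 14.8, 920.0, 961 and 1759 in Control, in LPS and after each of the peptides, WT PDZ first. BDKRB1, the inducible bradykinin receptor, was 31.5-fold higher from 4.35 to 167 normalized counts.

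**Figure D2:**
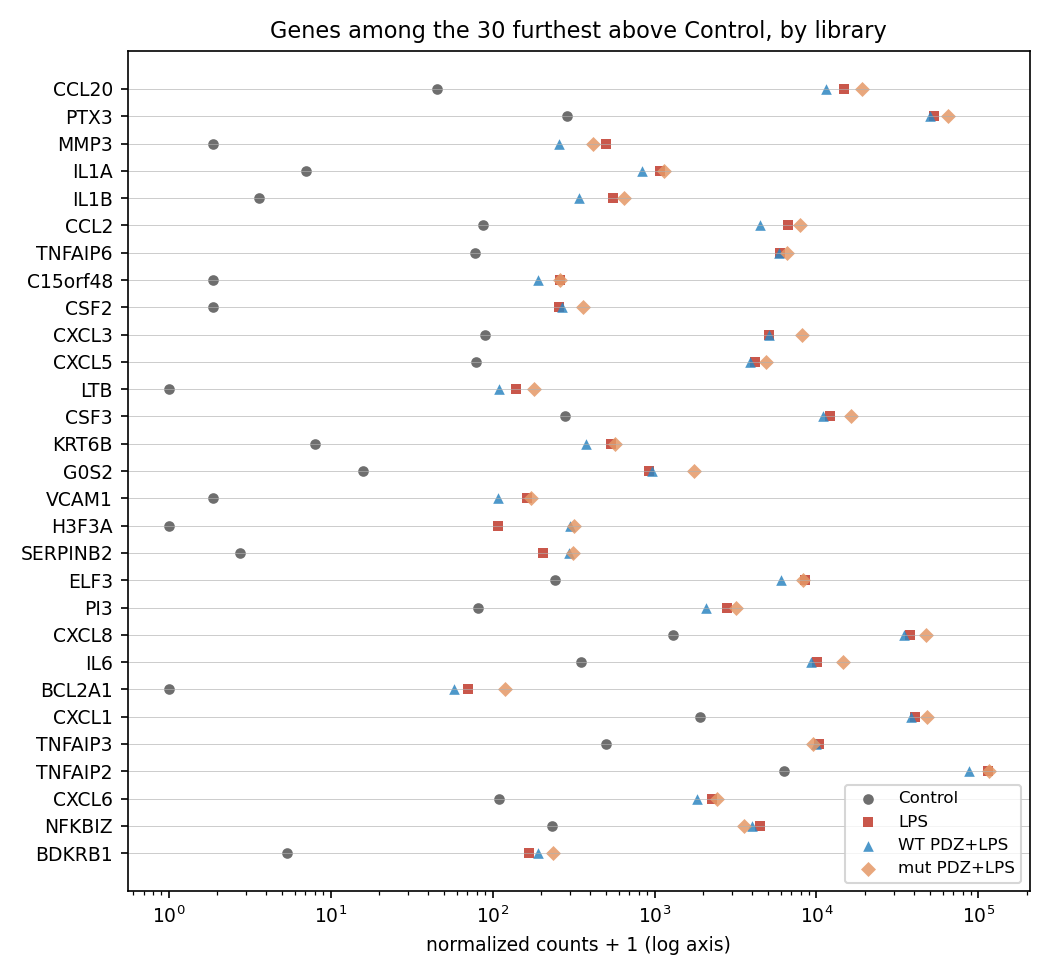
Normalized counts plus 1 (x axis, log scale) of genes among the 30 furthest above Control in each of the 4 libraries, 1 point a library. Control lies to the left of the other 3 libraries for each of these genes, among which TNFAIP2 had the highest Control level, 6329 normalized counts.

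In the NF-kB pathway the calls covered most subunits and inhibitors, some adaptors and kinases, and neither of the LPS receptor genes that passed. Of the 7 genes listed for the LPS receptor complex, 2 passed the level rule. TLR4 had 1582 normalized counts in Control and 1604 in LPS, next to 1680.3 in WT PDZ+LPS and 1174 for mut PDZ+LPS, and the co-receptor CD14 had 390.4 normalized counts in LPS against 441 in Control, and 366 and 523 where WT PDZ or mut PDZ came before LPS. LY96, which encodes MD-2, the protein that binds LPS for TLR4, had 1 count in Control and 0 in LPS, next to 0 in WT PDZ+LPS and 0 for mut PDZ+LPS, so it was not detectable above 3 counts in any library. Of 6 other Toll-like receptors and caspases that passed, TLR2, the receptor for bacterial lipoproteins, was called. It had 2098 normalized counts in LPS against 209 in Control, and 1781 and 2003 where WT PDZ or mut PDZ came before LPS, a log2 ratio of 3.32 (95% counting interval 3.14 to 3.53).

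Among adaptors and kinases, 9 of 33 passing members were higher and 0 lower, with a median log2 ratio of 0.21. BIRC3, an inhibitor-of-apoptosis ubiquitin ligase, was 10.6-fold higher, with 1529 normalized counts in Control and 16169 in LPS, next to 14170.3 in WT PDZ+LPS and 13126 for mut PDZ+LPS. IRAK2, a kinase-like adaptor of Toll-like receptors, was 9.7-fold higher, and MAP3K8, the kinase TPL2, 9.52-fold. The remaining named members of the group included a brake, IRAK3, which damps Toll-like receptor signalling and was 3.24-fold higher, as well as IKBKE, a kinase of the IKK family, at 3.04-fold, and TIFA, an adaptor for TRAF proteins, at 2.76-fold.

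Of the 5 NF-kB subunits, 4 were higher. NFKB1, the precursor of p50, had 12845 normalized counts in LPS against 1909 in Control, and 11534 and 7445 where WT PDZ or mut PDZ came before LPS, a log2 ratio of 2.75 (95% counting interval 2.68 to 2.82). NFKB2, the precursor of p52, was 6.43-fold higher, RELB 4-fold and REL 3.76-fold. REL, with a normalized count of 571 in mut PDZ+LPS against 1754 in WT PDZ+LPS, was the subunit whose libraries with peptide lay furthest apart, mut PDZ+LPS being the library that stood apart by transcript length. RELA, the subunit not called, went from 1765 to 2667 normalized counts.

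The I-kappa-B group was higher in 5 of 6 members, all of which had at least 16 normalized counts in Control, with a median log2 ratio of 2.03 against -0.0073 over all such genes. NFKBIZ, a nuclear cofactor that NF-kB needs for a set of secondary genes, had 233 normalized counts in Control and 4457 in LPS, next to 3999 in WT PDZ+LPS and 3583 for mut PDZ+LPS. NFKBIA, the classical cytoplasmic inhibitor, had 11594 normalized counts in LPS against 1471 in Control, and 10599 and 14814 where WT PDZ or mut PDZ came before LPS, a log2 ratio of 2.98 (95% counting interval 2.91 to 3.05). NFKBIE, a related inhibitor, was 5.77-fold higher, NFKBID, a nuclear member, 2.88-fold, and BCL3, a nuclear cofactor of p50 and p52, 2.52-fold. Of 13 ubiquitin editors and adaptors that passed, 2 were higher. TNFAIP3, the ubiquitin editor A20 that shuts off the signal between receptor and NF-kB, stood at 500.4 normalized counts in Control and 10368 in LPS, next to 9951 in WT PDZ+LPS and 9492 for mut PDZ+LPS, and its partner TNIP1 was 3.75-fold higher from 9987 to 37494 normalized counts.

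The promoters of some of these genes were read from RefSeq (GRCh38.p14), as windows of 250 bases before to 50 after the start of the gene. The windows were searched on both strands for the 10-base NF-kB consensus, for the AP-1 heptamer TGAGTCA, for the cyclic AMP response element, for the CArG box and for the GC box GGGCGG. The stretches below were picked among higher genes whose window holds the consensus, to show its letters in secreted signals, in the surface ligand VCAM1, in the transcription factor ELF3 and in the NF-kB genes themselves. Capitals mark the consensus, overlapping matches of both strands being joined, and each stretch is written 5′ to 3′ on the strand of its gene.
CCL20: tgatcaatggGGAAAACCCCatgtggcaac
PTX3: ccaaattcaGGGGAACTCCCgttaccgcag
CXCL1: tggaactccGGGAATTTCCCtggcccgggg
CXCL3: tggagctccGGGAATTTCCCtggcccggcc
CXCL5: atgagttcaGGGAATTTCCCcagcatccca
CXCL6: ctgagttcaGGGAATTTCCCcagcatccca
IL6: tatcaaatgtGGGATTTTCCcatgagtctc
VCAM1: tccccttgaaGGGATTTCCCtccgcctctg
ELF3: ctaaaggccaGGAAATCCCCtccatccaat
NFKBIZ: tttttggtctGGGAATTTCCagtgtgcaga
NFKBIA: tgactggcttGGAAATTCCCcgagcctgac
NFKB1: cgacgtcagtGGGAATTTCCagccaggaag
REL: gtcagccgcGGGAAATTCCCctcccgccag

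These stretches lie at chr2:227813753-227813782 (plus strand) for CCL20, chr3:157436744-157436773 (plus strand) for PTX3, chr4:73869305-73869334 (plus strand) for CXCL1 and chr4:74038748-74038777 (minus strand) for CXCL3. Those of CXCL5 and CXCL6, neighbouring paralogs whose stretches are nearly the same, lie at chr4:73998748-73998777 (minus strand) and chr4:73836579-73836608 (plus strand). IL6 is shown at chr7:22727117-22727146 (plus strand), VCAM1 at chr1:100719670-100719699 (plus strand), ELF3 at chr1:202010489-202010518 (plus strand) and NFKBIZ at chr3:101827757-101827786 (plus strand). For the pathway genes the places are chr14:35404811-35404840 (minus strand) for NFKBIA, chr4:102501300-102501329 (plus strand) for NFKB1 and chr2:60881518-60881547 (plus strand) for REL. In all 13 the match lies before the start of the gene, between position -223 for NFKBIZ and position -46 for REL, counted from the start. Since they were picked for the match, they say nothing about how common it is.

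Of all 27305 promoter windows in the table, 10.8% held the NF-kB consensus. Among protein-coding genes at least 8-fold higher, a cut chosen after the values were seen, 59 of 70 had a window and 39% of these held it, against 12.7% of the 9644 windows of genes not called. The AP-1 heptamer was in 16.9% and 2.78%, and in 4.92% of all windows. The cyclic AMP response element was in 0 and 3.38% and in 1.98% of all windows, the CArG box in 1.69%, 0.995% and 1.29%, and GGGCGG in 54.2%, 71.6% and 44.6%. Over all higher and all lower genes the check is void, because only 77.9% and 74.2% of the protein-coding members had a window. In the 314 windows of all higher genes that were found, 22.3% held the NF-kB consensus and 6.05% the AP-1 heptamer, both below the shares of the 8-fold set. A match is a description of letters in a window, not a site of binding.

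Transcription factors formed the next layer of the response. Of 7 FOS and JUN genes, the subunits of AP-1, 5 were higher. FOSL2 had 8828 normalized counts in LPS against 1379 in Control, and 8076 and 5945 where WT PDZ or mut PDZ came before LPS, a log2 ratio of 2.68 (95% counting interval 2.60 to 2.76). JUN was 2.74-fold higher, JUND 2.45-fold, FOSL1 2.44-fold, and FOSB, which passed through LPS alone, 7.48-fold from 11 counts in Control. FOS itself was not among them, with 200.2 normalized counts in Control and 167 in LPS, next to 159 in WT PDZ+LPS and 214 for mut PDZ+LPS. Of 18 passing ATF, BATF and MAF factors, MAFF, a small MAF protein, was 7.15-fold higher, CREB5, which passed through LPS alone, 5.45-fold and the stress factor ATF3 2.51-fold, while BATF2 was 3.28-fold lower.

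Early-response factors were mixed. In the EGR and NR4A group 3 of 5 were higher, and of these NR4A2 and EGR3 passed through LPS alone. Among the 3 members with at least 16 normalized counts in Control, only NR4A1 was called. NR4A2, an orphan nuclear receptor, was 11.5-fold higher from 13.9 to 170.3 normalized counts, EGR3 5.46-fold from 5 to 30 counts and NR4A1 2.62-fold. EGR1, the best known member of the group, went the other way without reaching the threshold, with 2038 normalized counts in LPS against 3926 in Control, and 2276 and 2749 where WT PDZ or mut PDZ came before LPS. Of the other immediate early factors 8 of 18 were higher, with a median log2 ratio of 0.69. KLF4, a Kruppel-like factor of epithelial differentiation, led with 409.9 normalized counts in Control and 2541 in LPS, next to 2527 in WT PDZ+LPS and 2326 for mut PDZ+LPS. PNRC1, a nuclear receptor cofactor, was 4.01-fold higher, IER3 3.9-fold, IER5 2.39-fold, the antiproliferative BTG3 2.23-fold and MYC 2.1-fold. With KLF6 at 2.08-fold and KLF10 at 2.04-fold, 3 of 13 KLF factors were higher, and 0 of 7 SP factors.

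Factors of other families stood higher as well. CEBPD, an acute-phase activator, was the called member of 6 C/EBP factors, with 7524 normalized counts in LPS against 1727 in Control, and 7109.9 and 13483 where WT PDZ or mut PDZ came before LPS. Of 18 ETS factors, ELF3 and ETS1 were called, and ETS1 was 3.82-fold higher. In a mixed group of hypoxia, stress and other factors, 5 of 13 were higher, and no hypoxia factor was among these calls. These were NFATC1, a calcium-regulated factor, at 9.36-fold, the large zinc finger proteins HIVEP2 at 6.08-fold, HIVEP3 at 5.5-fold and HIVEP1 at 2.83-fold, which bind NF-kB-like sites, and BACH1, a repressor regulated by heme, at 2.27-fold.

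Interferon-related genes were called in part. IRF1, an activator shared by NF-kB and interferon responses, had 1069 normalized counts in Control and 13155 in LPS, next to 9895 in WT PDZ+LPS and 13572 for mut PDZ+LPS, a log2 ratio of 3.62 (95% counting interval 3.54 to 3.71). IRF2BP2, a corepressor, was 2.69-fold higher, and the group stood at 2 of 10. STAT5A was 4.05-fold higher and alone among 7 STAT genes. Of 44 antiviral effectors 7 were higher, with a median log2 ratio of 0.10 over those with at least 16 normalized counts in Control. They were 4 guanylate-binding proteins, which are close paralogs, the RNA sensor DDX58 at 2.56-fold, its ubiquitin ligase TRIM25 at 2.18-fold and IFIT3 at 2.17-fold. GBP2 was 5.88-fold higher, GBP3 5.53-fold, GBP1 2.96-fold and GBP4 2.38-fold. IFIT3 had 1277 normalized counts in LPS against 588 in Control, and both libraries with peptide lay between them, at 834 for WT PDZ+LPS and 1096 for mut PDZ+LPS.

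Brakes on MAP kinases were called in both directions. Dual-specificity phosphatases, which remove the activating phosphates of MAP kinases, were higher in 5 of 11. DUSP8 was 7.62-fold higher from 16.5 to 133 normalized counts, DUSP6 2.95-fold, DUSP5 2.76-fold, DUSP16 2.29-fold and DUSP10 2.04-fold. Sprouty and SPRED proteins, which damp growth factor receptor signalling, had 0 of 9 higher and 2 lower. Of the group, 7 of 9 members lay above 0, and the median log2 ratio of the group was 0.13. SPRY2 had 943 normalized counts in LPS against 2149.7 in Control, and 964 and 838 where WT PDZ or mut PDZ came before LPS, a log2 ratio of -1.19 (95% counting interval -1.30 to -1.08). SPRY1 had 149 normalized counts in Control and 59.3 in LPS, next to 76.7 in WT PDZ+LPS and 76.4 for mut PDZ+LPS, a log2 ratio of -1.31 (95% counting interval -1.77 to -0.90). Of SOCS proteins and relatives, the inhibitors of JAK-STAT signalling, 0 of 15 were called, the nearest being SOCS3 at a log2 ratio of 0.96.

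Proteins that direct the decay of mRNA were higher in part. ZC3H12A, the endonuclease Regnase-1 that cuts stem-loops of cytokine mRNAs, had 13031 normalized counts in LPS against 773 in Control, and 11174 and 14864 where WT PDZ or mut PDZ came before LPS, a log2 ratio of 4.07 (95% counting interval 3.98 to 4.18). Its relative ZC3H12C was 4.03-fold higher and ZFP36L1, a protein that binds AU-rich elements, 2.33-fold. ZFP36, tristetraprolin, was not called, with 879 normalized counts in Control and 722 in LPS, next to 640.2 in WT PDZ+LPS and 982 for mut PDZ+LPS. The group stood at 3 of 14, and deadenylation and decapping factors at 0 of 20.

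AU-rich elements are stretches of the 3′ untranslated region (3′UTR) that shorten the life of an mRNA. The heptamer TATTTAT, a core of such elements, was searched in the 3′UTR of the longest protein-coding transcript of each gene in GENCODE 29, a search chosen after the counts were seen. It was present for 48.5% of the 408 higher genes with a transcript, against 35.4% of 11341 genes not called. At least 3 copies were present for 12.7% and 6.87%. Per 1000 bases of 3′UTR the higher genes held 0.536 copies and the genes not called 0.317, while the median 3′UTR lengths were 1308 and 1346 nt. In 4 equal groups by 3′UTR length, from short to long, the shares were 19.8% against 9.2%, 49.1% against 21.9%, 56.7% against 42.3%, and 68.1% against 67.8% in the longest group. Among the genes above, CSF2 held 7 copies, CXCL1 4, CXCL8 4, IL1B 4 and ZC3H12C 5, while TNFAIP2, ELF3 and NFKBIZ held 0. The median transcript of the higher genes had 6 exons, against 9 for genes not called. For the lower genes the check is void, since 73.3% had a transcript.

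**Figure D3:**
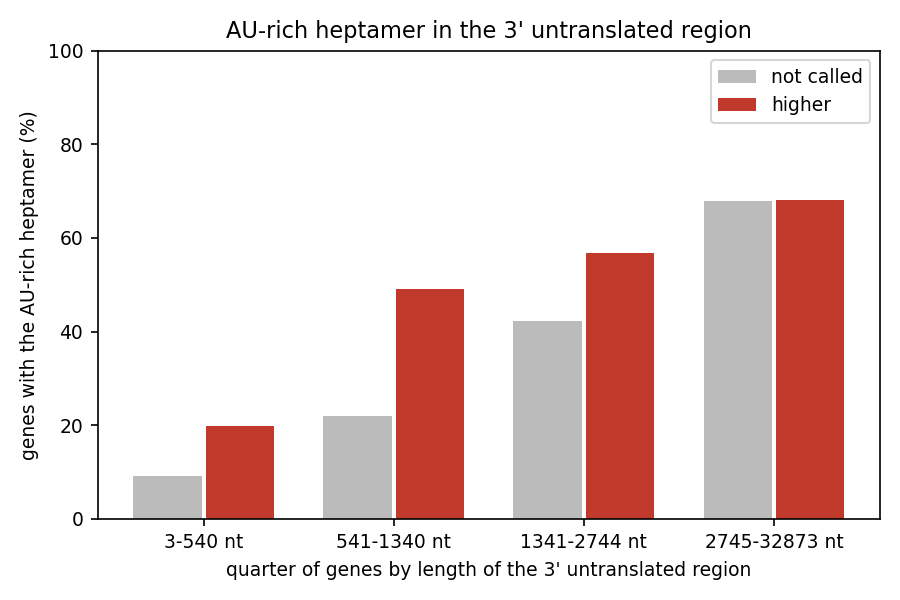
Share of genes (y axis, percent) with at least 1 TATTTAT in the 3′UTR, in 4 groups of equal size by 3′UTR length (x axis, nt), for genes not called (grey) and higher genes (red). The bars of the higher genes stand above the grey ones in the 3 groups of shorter 3′UTRs and level with them in the longest, at 68.1% and 67.8%.

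Chemokines and cytokines are the best known output of the pathway, and 13 of the 30 furthest above Control belonged to these groups. Of 13 chemokines that passed, 10 were higher, 2 having passed through LPS alone, and of 15 cytokines 11, 5 having passed through LPS alone. CXCL8, the neutrophil attractant interleukin-8, had 37516 normalized counts in LPS against 1307 in Control, and 34700.2 and 47644 where WT PDZ or mut PDZ came before LPS, and CCL2, a monocyte attractant, had 86.2 normalized counts in Control and 6675 in LPS, next to 4469 in WT PDZ+LPS and 7896 for mut PDZ+LPS. IL6 was 28.5-fold higher, the neutrophil growth factor CSF3 43.2-fold and IL1A 152-fold. TNF, tumour necrosis factor, was at least 16.6-fold higher, from 0 counts to 46. The CXC chemokines CXCL1, CXCL3, CXCL5 and CXCL6 were 21.2-fold, 56.7-fold, 52.9-fold and 20.5-fold higher. Reads can be split between CXCL1 and CXCL3, which are close paralogs.

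Proteins of acute phase and mucosal defence were higher in 8 of 19 passing genes, with a median log2 ratio of 0.56. FGB, the fibrinogen beta chain, is not in this list and was called lower. Besides PTX3 and PI3 they included CFB, complement factor B, at 6.62-fold, with 12208 normalized counts in LPS. LCN2, which withholds bacterial iron carriers, was 4.18-fold higher, C1QTNF1 3.99-fold and SLPI, a protease inhibitor of airway fluid, 2.62-fold. The serum amyloid genes SAA4 and SAA2, which share reads with each other and with a read-through symbol, were 3.23-fold and 3.14-fold higher.

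The plasminogen and coagulation group was higher in 12 of 23 passing genes, with 18 of 22 above 0 among those at 16 or more normalized counts in Control and a median log2 ratio of 0.93. SERPINB2 passed through LPS alone. FGB, which was called lower, is not in this list either. Activators and inhibitors of plasmin were higher together. PLAU, urokinase, had 5898 normalized counts in LPS against 910.3 in Control, and 4280.5 and 5654 where WT PDZ or mut PDZ came before LPS. SERPINE2, a protease inhibitor that also acts on urokinase, was 10.6-fold higher. F3, tissue factor, which starts coagulation, had 2638 normalized counts in Control and 12730.2 in LPS, next to 12621 in WT PDZ+LPS and 18929 for mut PDZ+LPS. SERPINB4, which shares reads with its near-identical neighbour SERPINB3, was 3.95-fold higher. Metalloproteinases gave calls both ways, with MMP3 and ADAMTS9 higher and ADAMTS15 and ADAM19 lower among 23, the higher pair having passed through LPS alone. ADAMTS9 went from 7 to 35 counts, a log2 ratio of 2.26 (95% counting interval 1.24 to 3.85).

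Growth factors that act on neighbouring cells made another group. The EGF receptor and its ligands were higher in 5 of 8, 1 having passed through LPS alone. EREG, epiregulin, had 18363 normalized counts in LPS against 4032 in Control, and 19106 and 11212 where WT PDZ or mut PDZ came before LPS, a log2 ratio of 2.19 (95% counting interval 2.14 to 2.23). AREG, amphiregulin, was 2.48-fold higher, HBEGF 2.16-fold, EPGN, epigen, 2.03-fold and the receptor EGFR 2.05-fold. EGFR had 2602 normalized counts in Control and 5336 in LPS, next to 5386 in WT PDZ+LPS and 2363 for mut PDZ+LPS, so mut PDZ+LPS lay near Control. Its transcript is long, at 9821 nt, and mut PDZ+LPS was the library that stood apart by transcript length. The part of that trend in the EGFR value was not tested.

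Of 24 other growth factors 8 were higher, and 1 of these passed through LPS alone. ADM, adrenomedullin, a peptide that widens vessels, had 1291 normalized counts in LPS against 102 in Control, and 1078 and 1939.9 where WT PDZ or mut PDZ came before LPS, a log2 ratio of 3.65 (95% counting interval 3.39 to 3.95). EDN1, endothelin 1, which narrows them, was 5.81-fold higher from 25.2 to 151 normalized counts. STC1, stanniocalcin, was 5.26-fold higher, CTGF, a matrix-associated growth factor, 2.76-fold, FGF2 2.45-fold, ANGPTL4, an inhibitor of lipoprotein lipase, 2.4-fold and GDF15 2.39-fold. CTGF had the highest level of these, at 30855 normalized counts in LPS.

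Surface ligands for leukocytes and related surface proteins were higher in 8 of 31. Of these 8, VCAM1, TNFRSF9, TNFSF15 and ICAM4 passed through LPS alone. ICAM1, the ligand of leukocyte integrin LFA-1, had 2834 normalized counts in Control and 34318 in LPS, next to 27307 in WT PDZ+LPS and 28543 for mut PDZ+LPS, a log2 ratio of 3.60 (95% counting interval 3.55 to 3.65). ICAM4, its neighbour on the chromosome, was 7.75-fold higher from 5 to 43 counts. Costimulatory molecules were ICOSLG at 8.33-fold and CD83 at 5.31-fold. CD274, the inhibitory checkpoint ligand PD-L1, was 3.27-fold higher. TNFRSF9, the receptor also called 4-1BB, was 11.8-fold higher from 10 to 121 counts. TNFSF15, with 0 counts in Control and 47 in LPS, was at least 16.9-fold higher.

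Genes for survival and for death were both called. Anti-apoptotic genes were higher in 5 of 13, BCL2A1 through LPS alone, among them TNFAIP8 at 9.68-fold and the caspase-8 inhibitor CFLAR at 2.64-fold. Pro-apoptotic genes were higher in 4 of 26. BBC3, the BH3-only protein PUMA, had 595 normalized counts in LPS against 95.7 in Control, and 486 and 820.1 where WT PDZ or mut PDZ came before LPS, a log2 ratio of 2.62 (95% counting interval 2.34 to 2.94). PMAIP1, the BH3-only protein NOXA, was 2.15-fold higher and TNFRSF10B, a receptor of TRAIL, 2.05-fold, and BIK, which passed through LPS alone, went from 6 to 18 counts. Of p53 targets, which share some of these functions, 2 of 27 were higher, PLK3 at 6.71-fold and PHLDA1 at 3.49-fold.

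Enzymes and carriers of metabolites, metals and lipids followed. SOD2, the mitochondrial superoxide dismutase, had 4148 normalized counts in Control and 36361 in LPS, next to 39267 in WT PDZ+LPS and 24648 for mut PDZ+LPS, a log2 ratio of 3.13 (95% counting interval 3.09 to 3.18). The zinc importers SLC39A8 and SLC39A14 were 3.22-fold and 2.67-fold higher, and with LCN2 and SLC11A2 the group for reactive oxygen and metal ions stood at 5 of 27. In amino acid and NAD metabolism 5 of 13 were higher. GCH1, the first enzyme of tetrahydrobiopterin synthesis, was 6.03-fold higher, GFPT2, of hexosamine synthesis, 4.12-fold, NAMPT, of NAD salvage, 3.69-fold, SAT1, of polyamine breakdown, 2.49-fold and KYNU, of tryptophan breakdown, 2.09-fold.

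Nutrient transporters were higher in 4 of 23, with SLC2A6, a lysosomal hexose transporter, at 3.23-fold, SLC12A7, a potassium-chloride carrier, at 3.19-fold, the cationic amino acid carrier SLC7A2 at 2.19-fold and mitochondrial iron carrier SLC25A37 at 2.07-fold. Over all 199 solute carrier symbols that passed, 10 were higher and 0 lower, with a median log2 ratio of 0.03. ABCA1, the cholesterol exporter, was 7.3-fold higher and the only call among 28 genes of cholesterol synthesis and transport. Glycolysis had 0 higher and 1 lower of 22, PDK4, a kinase that blocks pyruvate oxidation. Prostaglandin and lipid mediator synthesis had 3 of 12 higher, of which CH25H, cholesterol 25-hydroxylase, which passed through LPS alone, went from 1 to 22 counts, PTGES, the terminal prostaglandin E2 synthase, was 2.67-fold higher and CYP7B1 2.46-fold. The prostaglandin receptor PTGER4 was 2.12-fold higher, among 5 receptors.

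Receptors and kinases were also represented. In the group of RGS proteins and G-protein receptors 5 of 23 were higher, BDKRB1 and RGS16 having passed through LPS alone. G-protein receptors outside this group were called both ways, for example PTGER4 higher and SSTR1 and S1PR5 lower. BDKRB2, the constitutive bradykinin receptor, had 1074 normalized counts in LPS against 112 in Control, and 1071 and 759 where WT PDZ or mut PDZ came before LPS. The orphan receptor GPRC5B was 5.59-fold higher, and RGS16, a brake on G proteins, went from 2 to 22 counts. Of 42 genes in the kinase group 9 were higher, led by the ephrin EFNA1, a ligand of EPH kinases, at 7.4-fold, PLK3 at 6.71-fold, the pseudokinase TRIB1 at 3.77-fold, PIM1 at 3.6-fold, MAP2K3, which activates p38, at 3.56-fold and SGK1 at 3.46-fold. The glycogen-targeting subunit PPP1R3C was 2.73-fold lower, the call among 10 phosphatase regulators, and RASSF5 was 2.74-fold higher among 32 small GTPase genes.

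Developmental pathways held scattered calls. Transcription factors of development were higher in 9 of 54. FOXC1, the called gene of 23 forkhead factors, had 131 normalized counts in Control and 1067 in LPS, next to 950.2 in WT PDZ+LPS and 1041 for mut PDZ+LPS, a log2 ratio of 3.02 (95% counting interval 2.78 to 3.29). TWIST1, a factor of mesenchymal genes, had 2561 normalized counts in LPS against 550.0 in Control, and 2490.1 and 3809 where WT PDZ or mut PDZ came before LPS. GATA6 was 3.72-fold higher, the basal epithelial factor TP63 2.43-fold and SIX5 2.4-fold. Chromatin regulators were higher in 5 of 55, the corepressor BCOR at 3.93-fold, the repressor BCL6 at 3.63-fold, the H3K27 demethylase KDM6B at 3.16-fold, the coactivator NCOA7 at 5.51-fold and HDAC9, which passed through LPS alone, at 2.06-fold, and 1 was lower, TET1.

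Notch genes were higher in 4 of 19, all of them ligands or a modifier of the receptor, and DLL4 and LFNG passed through LPS alone. DLL4 went from 5 to 31 counts, JAG1 was 2.09-fold higher, DLL1 2.01-fold, and the glycosyltransferase LFNG went from 4 to 34 counts. Of 24 Wnt genes WNT7B and the receptor FZD8 were higher and WNT5B lower, all at 25 counts or fewer in Control, and the higher pair passed through LPS alone. In TGF-beta signalling BMP2 at 2.32-fold and the activin inhibitor FSTL3 at 2.25-fold were called among 12 ligands and inhibitors, and ID2 at 3.98-fold, SMAD3 at 3.36-fold and TGIF1 at 2.54-fold among 26 SMADs and targets. NUAK2, a kinase regulated by Hippo signalling, was 3.54-fold higher, the call among 16 Hippo genes.

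Epithelial structure held a few calls. CLDN1, claudin-1 of tight junctions, had 913 normalized counts in Control and 7058 in LPS, next to 7101 in WT PDZ+LPS and 5144 for mut PDZ+LPS, a log2 ratio of 2.95 (95% counting interval 2.86 to 3.05). With the connexin GJB2 at 3.44-fold and TJP3, junction genes stood at 3 of 28. TJP3, which passed through LPS alone, had 23 counts in LPS against 11 in Control, and 6 and 13 where WT PDZ or mut PDZ came before LPS, a log2 ratio of 1.10 (95% counting interval 0.08 to 2.36), so WT PDZ+LPS was below Control. KRT16, from 9 to 27 counts, joined KRT6B among 25 cytoskeletal genes, both having passed through LPS alone. LAMB3, a laminin chain of the epithelial basement membrane, had 27.9 normalized counts in Control and 628 in LPS, next to 716 in WT PDZ+LPS and 596 for mut PDZ+LPS, and the integrin ITGB8, which activates TGF-beta, had 8476 normalized counts in LPS against 1371 in Control, and 7884 and 6008 where WT PDZ or mut PDZ came before LPS. With COL5A3 at 2.31-fold these were the calls among 47 collagens, laminins and integrins.

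**Figure D4:**
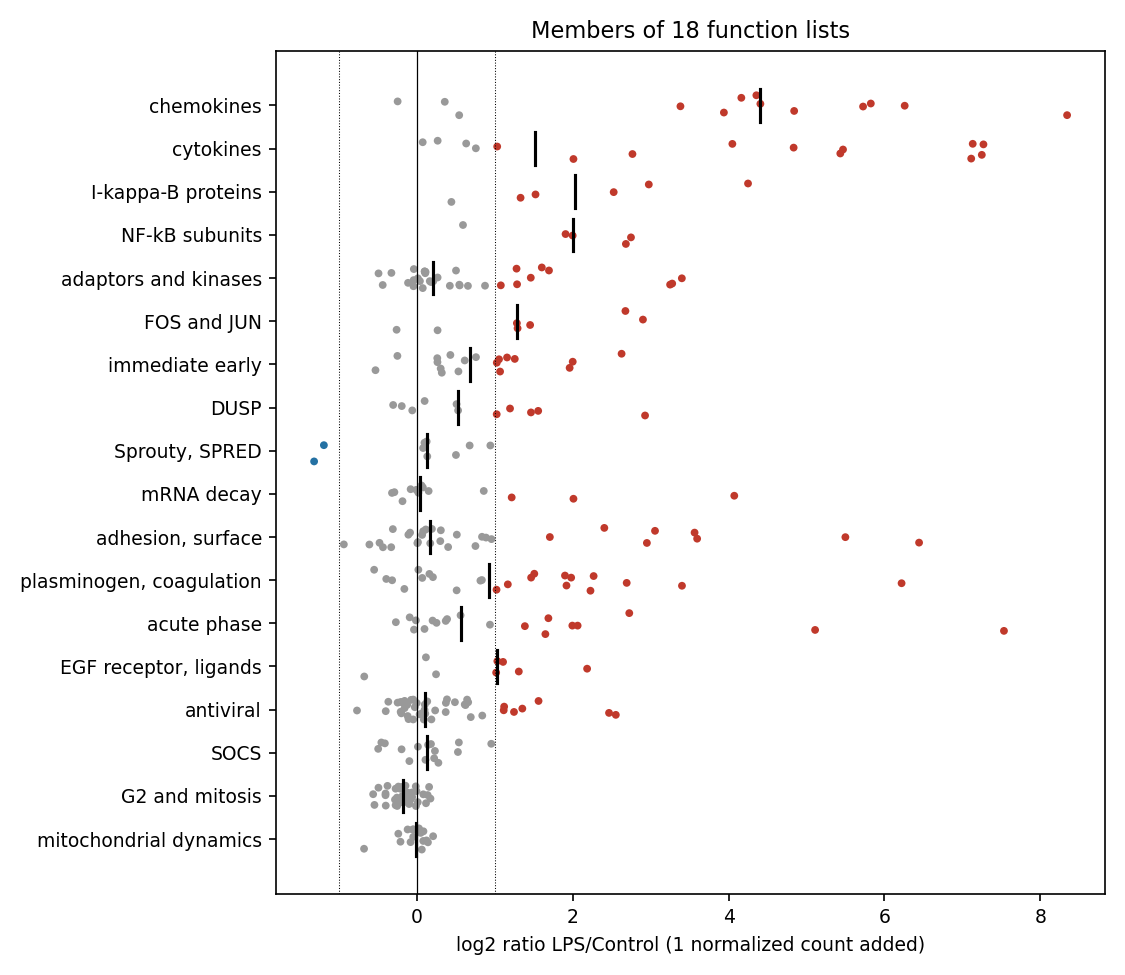
Log2 ratio LPS/Control (x axis, 1 normalized count added) of each passing member of 18 function lists (rows), red if at least 2-fold higher, blue if at least 2-fold lower and grey otherwise. Black bars mark the median over members with at least 16 normalized counts in Control, which runs from -0.17 for G2 and mitosis to 4.41 for chemokines.

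Some stress programmes had higher calls above the background share of 3.46%, and chaperones had none. Targets of the unfolded protein and integrated stress responses were higher in 4 of 24. CHAC1, a glutathione-degrading enzyme, was 3.01-fold higher, the sensor ERN1 2.7-fold and the factor XBP1 2.42-fold. The glucocorticoid receptor NR3C1 was 3.78-fold higher, from a list of its targets and related genes with 3 higher and 2 lower among 20. SGK1 at 3.46-fold and ANGPTL4 at 2.4-fold were the other higher calls. The lower calls were TSC22D3, 2.74-fold lower, and PDK4, 2.2-fold lower. Clock genes had 1 higher and 1 lower among 23, and the higher one, BHLHE41, had fewer than 30 counts in each library and passed through LPS alone. TAPBP, tapasin, at 2.22-fold was the call among 21 genes of MHC class I presentation, and BTBD19, RNF144B, USP43 and PELI1 were 6.89-fold, 6.16-fold, 2.9-fold and 2.59-fold higher among 19 of the ubiquitin system. Calls among chaperones were 0 of 17, and mitochondrial fission, fusion and mitophagy genes had 0 of 18.

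Some large groups had few calls but most members on the same side of 0. Of 40 genes of G2 and mitosis 0 were called, 6 of 40 were above 0 and the median log2 ratio was -0.17. Genes of G1/S and S phase had 1 lower call, CCNE1, cyclin E1, from 82.7 to 39.5 normalized counts, and a median of -0.000157. Zinc finger symbols, 493 of which passed, had 4 higher and 11 lower, with 124 of 493 above 0 and a median of -0.19. Cytosolic ribosomal proteins, mitochondrial ribosomal proteins, oxidative phosphorylation and the proteasome had 0 calls in 82, 77, 71 and 37 passing genes, and medians of -0.07, -0.06, -0.05 and 0.01. Kinesins and centromere proteins had 0 calls in 48, with a median of -0.12. Scaling to total counts moved the median of all passing genes to -0.13, so these small medians depend on the scale. Histone symbols had 1 higher and 4 lower of 22, with a median of -0.46. The 5 called genes of this class, which does not hold H3F3A, had at most 27 counts in Control and LPS, in libraries selected for poly(A), which most histone mRNAs lack. HIST1H4F, for example, had 19 counts in Control and 3 in LPS, next to 24 in WT PDZ+LPS and 40 for mut PDZ+LPS, with LPS below the other 3 libraries.

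The lower genes that could be read as single genes included receptors, repressors and growth factor brakes, mostly at low levels. Of the 187 lower genes 50 had at least 64 normalized counts in Control and 3 at least 1000. ADAMTS15, a metalloproteinase that cuts proteoglycans, had 97.8 normalized counts in LPS against 491 in Control, and 91.9 and 95.2 where WT PDZ or mut PDZ came before LPS, a log2 ratio of -2.32 (95% counting interval -2.64 to -2.02). Control stood above the other 3 libraries, which lay within 10 normalized counts of each other. TSC22D3, the glucocorticoid-induced leucine zipper GILZ, had 921 normalized counts in Control and 336 in LPS, next to 328 in WT PDZ+LPS and 315 for mut PDZ+LPS, a log2 ratio of -1.45 (95% counting interval -1.63 to -1.28). HIC1, a transcriptional repressor, had 220.1 normalized counts in LPS against 596 in Control, and 199 and 391 where WT PDZ or mut PDZ came before LPS. TET1, which oxidises methylcytosine in DNA, had 220.2 normalized counts in Control and 75.3 in LPS, next to 106 in WT PDZ+LPS and 52.9 for mut PDZ+LPS, a log2 ratio of -1.54 (95% counting interval -1.93 to -1.18). For HIC1 and TET1 the libraries with peptide lay on either side of LPS. MKX, a homeobox factor of tendon cells, had 702 normalized counts in LPS against 1500.4 in Control, and 803 and 793 where WT PDZ or mut PDZ came before LPS, and with SPRY2 was among the few lower genes above 1000 normalized counts.

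Weaker genes completed this set. BATF2 had 60.9 normalized counts in Control and 17.9 in LPS, next to 27.3 in WT PDZ+LPS and 41.1 for mut PDZ+LPS. SSTR1, a somatostatin receptor, had 2 counts in LPS against 29 in Control, and 9 and 5 where WT PDZ or mut PDZ came before LPS, a log2 ratio of -3.19 (95% counting interval -6.86 to -1.76). RAB3A, a GTPase of secretory vesicles, had 44 counts in Control and 7 in LPS, next to 12 in WT PDZ+LPS and 14 for mut PDZ+LPS. In these the libraries with peptide lay between LPS and Control. NTF3, a neurotrophin, had 11 counts in LPS against 49 in Control, and 8 and 14 where WT PDZ or mut PDZ came before LPS. RTN4RL1, a Nogo receptor relative, was 4.61-fold lower, ANKRD34A 3.7-fold, ZNF391 3.08-fold and ZBTB8B 4-fold.

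**Figure D5:**
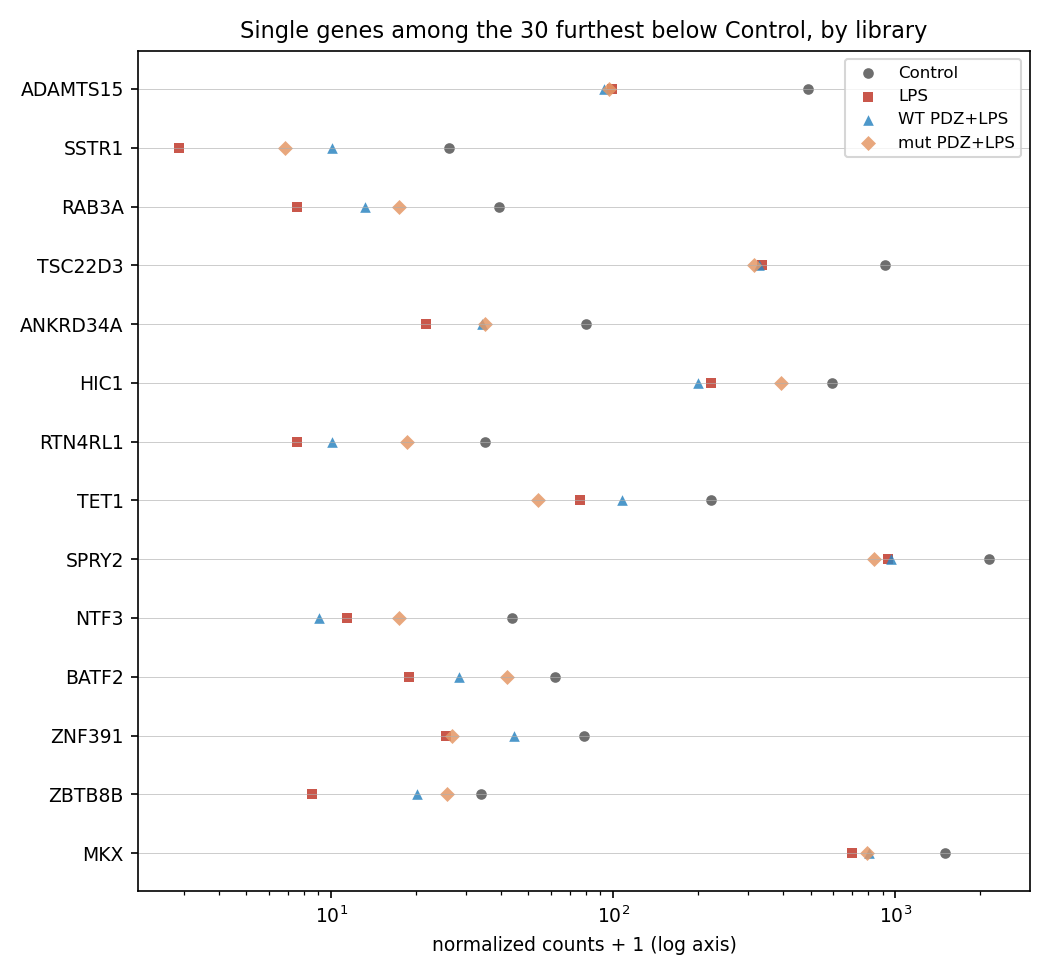
Normalized counts plus 1 (x axis, log scale) in each library for 14 of the 30 genes furthest below Control, leaving out read-through, pseudogene, antisense and other symbols whose reads may belong to another gene. Control lies to the right of the other 3 libraries for each gene, with the largest log2 ratio for SSTR1, -3.19, and the smallest for MKX, -1.10.

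Many of the lowest values belong to symbols whose reads can be assigned to more than 1 gene. Of the 30 genes furthest below Control, 10 were read-through symbols, counted where a hyphen joins a pair of symbols that are both in the table. RAD51L3-RFFL and LOC100499484-C9ORF174 are also joined symbols, with 1 part that is not in the table, and are outside that count. ARMCX5-GPRASP2 had 97 counts in Control and 0 in LPS, next to 23 in WT PDZ+LPS and 17 for mut PDZ+LPS, whereas GPRASP2 itself had 218 counts in LPS against 189 in Control, and 214 and 108 where WT PDZ or mut PDZ came before LPS. The other part, ARMCX5, went from 421 to 353 counts. ZFP91-CNTF had 101 counts in Control and 16 in LPS, next to 75 in WT PDZ+LPS and 0 for mut PDZ+LPS, while CNTF had 51 counts in LPS against 0 in Control, and 19 and 29 where WT PDZ or mut PDZ came before LPS, and ZFP91 went from 5421 to 5482 counts. NUDT4P1, a copy of NUDT4, had 158 counts in Control and 1 in LPS, next to 0 in WT PDZ+LPS and 1 for mut PDZ+LPS, whereas NUDT4 had 679 counts in LPS against 609 in Control, and 579 and 448 where WT PDZ or mut PDZ came before LPS. In LPS, GPRASP2, CNTF, ZFP91 and NUDT4 had more counts than in Control while ARMCX5 had fewer. BOLA2, which has a near-identical copy, had 21 counts in Control and 0 in LPS, next to 0 in WT PDZ+LPS and 0 for mut PDZ+LPS, and RAD51L3-RFFL had 0 counts in LPS against 29 in Control, and 56 and 0 where WT PDZ or mut PDZ came before LPS. Over all calls, 13 of 62 passing read-through symbols were lower and 10 higher. HNRNPA1P10, a pseudogene of HNRNPA1, was the lower symbol with the most counts, at 8178 counts in Control and 3727 in LPS, next to 4451 in WT PDZ+LPS and 2218 for mut PDZ+LPS.

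Of 383 noncoding symbols 13 (3.39%) were higher and 15 (3.92%) lower, against 3.46% and 1.41% of all genes that passed. MIR17HG, the host transcript of the miR-17 cluster, had 371 normalized counts in LPS against 136 in Control, and 269 and 455 where WT PDZ or mut PDZ came before LPS. EGFR-AS1, antisense to EGFR, which passed through LPS alone, went from 16 to 55 counts, and USP46-AS1 from 33 to 3. The strand setting of the counting is not given in the sources used here, so reads of a gene and its antisense partner cannot be told apart.

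Some higher genes stood beside each other on the chromosome. Among 18860 protein-coding genes placed by RefSeq, 8988 neighbouring pairs had both members passing, and in 42 of these (0.467%) both were higher and in 4 both lower. Of 403 placed higher genes, 77 (19.1%) had a higher neighbour, in 35 runs. Of 132 placed lower genes, 8 (6.06%) had a lower neighbour. The share of all passing genes that lie beside a higher gene was not computed, so the 19.1% has no background. Some runs are families of duplicated genes. On chromosome 4 these were CXCL5, CXCL3 and CXCL2, CXCL8 and CXCL6, with RASSF6 beside them, and the EGF-like ligands EPGN, EREG and AREG, and elsewhere GBP3, GBP1 and GBP2 on chromosome 1, IL1A and IL1B on chromosome 2, TNF and LTB on chromosome 6, BDKRB2 and BDKRB1 on chromosome 14, CCL2 and CCL7 on chromosome 17 and ICAM1 and ICAM4 on chromosome 19. Others join genes of unlike function, such as LAMB3 and G0S2 on chromosome 1, SLC39A8 and NFKB1 on chromosome 4, HIVEP1 and EDN1 or SOD2 and WTAP on chromosome 6, HDAC9 and TWIST1 on chromosome 7 and DLL4 and CHAC1 on chromosome 15.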

How the data were processed

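RNA of BEAS-2B cells was measured in 4 libraries (NEBNext Ultra II Directional kit, poly(A) selection), 1 for each group. The authors checked the reads with FastQC, trimmed them with FASTX_Trimmer and BBMap and mapped them with TopHat, and hg19 is the build in the submitters' processing notes. The deposited values are raw counts per gene symbol, made by the authors without normalization (whole numbers that sum to unlike totals), although FPKM and edgeR are named in the study's methods. The counting tool and its use of strand are not given in the sources used here.

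Counts were divided by median-of-ratios size factors from all 4 libraries (DESeq2 1.42.0 in R 4.3.3), namely 1.15 for Control, 1.06 for LPS, 0.990 for WT PDZ+LPS and 0.851 for mut PDZ+LPS. Folds in the text carry 1 added normalized count, except bounds against 0 counts, which take the 0 as 3 counts. Intervals are exact binomial (Clopper-Pearson) at 95% on the ratio of the 2 libraries and cover counting error only, as PCR copies were not marked by molecular identifiers. Each library may carry technical differences that no replicate shows. Genes were grouped by 63 lists and 12 classes of symbols. Medians are over members with at least 16 normalized counts in Control. The genes named are the 30 of each direction with the largest interval bound nearest to 0, every called member of a list with up to 8 calls and otherwise the 6 with the largest bound, the defining markers and the LPS receptor complex. Some genes that this rule names are not reported here. Others are named as values or after their values were seen. The members and lists were chosen with earlier results of these data known. Transcripts and 3′UTRs came from GENCODE 29 (GRCh38), promoters and gene order from RefSeq (GRCh38.p14). No coordinate was converted between builds. Alternatives were TMM (edgeR 4.0.16), total-count, upper-quartile and 2-library scaling, other pseudocounts, level rules and folds, and an interval rule. Simulated counts with known folds were used to test the steps. Python 3.11.15 was run with pandas 2.3.3, numpy 2.4.6, scipy 1.17.1 and matplotlib 3.10.9.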

Additional observations from a re-analysis of the deposited data

How the results depend on the processing

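The processing changed the number of lower calls more than that of higher calls. The main counts were 460 higher and 187 lower genes. Scaling to total counts gave 388 and 274, the share of calls that were higher going from 71.1% to 58.6% and the median log2 ratio of all passing genes to -0.13. A pseudocount of 5 gave 422 and 123, a level rule of 64 normalized counts 333 and 50, and a counting interval wholly beyond 1.5-fold 386 and 87. Without a level rule the counts were 1176 and 969, with a fold of 1.5 they were 891 and 633, and with a fold of 3 they were 243 and 45, as fewer or more genes meet each rule by construction. TMM gave 465 and 189, upper-quartile scaling 424 and 230, and size factors from Control and LPS alone 475 and 211. Leaving out read-through symbols and their parts, an alternative added after the data were seen, gave 441 and 170. The 263 named genes were all picked among genes called at 2-fold or more. That 0 of them changed direction under the 4 other scalings or the pseudocount of 5 was therefore nearly fixed in advance. The log2 ratio left its main counting interval for 85 of them under total-count scaling, 20 under upper-quartile scaling, 17 with the pseudocount of 5 and 0 under TMM. No paired analysis was possible because each group has 1 library. Depth limits mainly the genes near 16 normalized counts, where the counting interval is wide.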

Other observations

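Of the 460 higher genes, 248 were in none of the function lists, and of the 187 lower genes 175. The genes named here were chosen after their values were seen. SDC4, syndecan-4, a heparan sulfate proteoglycan of the cell surface, was next to TNFAIP2 in its LPS level, with 6573 normalized counts in Control and 100415 in LPS, next to 82491 in WT PDZ+LPS and 81545 for mut PDZ+LPS, a log2 ratio of 3.93 (95% counting interval 3.90 to 3.97). TNC, the matrix protein tenascin-C, which is made in injured tissue, was 6.27-fold higher from 237 to 1489 normalized counts. Receptor and kinase genes of cytokine signalling were among them. IL7R, a receptor chain for interleukin-7 and TSLP, had 377 normalized counts in LPS against 30.5 in Control, and 433 and 261 where WT PDZ or mut PDZ came before LPS. JAK2, a kinase of cytokine receptors, was 4.01-fold higher, and the interferon receptor chains IFNGR1, IFNGR2 and IFNAR2 were 2.47-fold, 2.19-fold and 2.05-fold higher.

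Regulators of gene expression without a list included WTAP, a subunit of the enzyme that methylates adenosine in mRNA, at 3.39-fold, NOCT, nocturnin, at 3.82-fold, the metal-responsive factor MTF1 at 3.8-fold and AHR, the receptor for aryl hydrocarbons, at 3.11-fold. CYP1B1, a target of AHR, was 2.16-fold higher and abundant, with 26007 normalized counts in LPS. MEFV, which encodes the inflammasome protein pyrin, had 83.6 normalized counts in Control and 651 in LPS, next to 602 in WT PDZ+LPS and 464 for mut PDZ+LPS. PDE4B, a phosphodiesterase that breaks down cyclic AMP, had 123 counts in LPS against 25 in Control, and 67 and 30 where WT PDZ or mut PDZ came before LPS. These counts are not scaled, and the size factor was 0.851 for mut PDZ+LPS against 1.15 for Control.

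Among the lower genes in no list, FGB, the fibrinogen beta chain, had 91 counts in Control and 28 in LPS, next to 29 in WT PDZ+LPS and 47 for mut PDZ+LPS. APLN, the peptide apelin, had 20 counts in LPS against 67 in Control, and 20 and 14 where WT PDZ or mut PDZ came before LPS, and S1PR5, a receptor for sphingosine 1-phosphate, had 149 counts in Control and 56 in LPS, next to 51 in WT PDZ+LPS and 54 for mut PDZ+LPS. CDKN2D, an inhibitor of cyclin-dependent kinases, went from 135 to 60 counts. In each of these Control had the highest count of the 4 libraries.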
